A study of Mus musculus with 12 samples.

Results

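The miR-99b/let-7e/miR-125a cluster is a run of 3 microRNA (miRNA) hairpins on mouse chromosome 17, and its members here are the 6 mature arms of those hairpins, mmu-miR-99b-5p, mmu-miR-99b-3p, mmu-let-7e-5p, mmu-let-7e-3p, mmu-miR-125a-5p and mmu-miR-125a-3p, written below without the species prefix. All 6 were among the 1978 miRNA arms of the count files and were matched by name. Of the 6, 3 held enough counts to be tested (miR-99b-5p, let-7e-5p and miR-125a-5p), out of 206 miRNAs tested in all. The study sequenced small RNA of 2 kinds of mouse stem cell, the embryonic line E14 (ESC) and trophoblast stem cells (TSC), which give rise to the placenta. For both there were control samples, labelled wild type, and samples labelled as paused through mTOR inhibition; mTOR is a kinase that promotes protein synthesis and growth. The labels give no TSC line, inhibitor, dose or duration of pausing. Of 12 samples, 3 per group, the third file of each group was identical to the second and was counted with it as 1 library, which leaves each of the 4 groups with n = 2. The labels do not say that libraries came from separate cultures, so p-values measure the spread between these libraries, which may be technical.

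A miRNA guides the silencing machinery to messenger RNAs that pair with its seed, bases 2 to 8 from its 5′ end. Hairpins of one cluster can be transcribed as 1 primary transcript and then be processed separately, so that their mature products can stand at different levels. This cluster joins 3 families: miR-99b belongs to the miR-99/100 family, known for sites in mTOR itself and in other genes of growth signalling, let-7e belongs to the let-7 family, which is low in pluripotent cells and high in differentiated ones, and miR-125a belongs to the miR-125 family, whose founding member lin-4 times development in worms. In pluripotent cells the protein LIN28 is known to block the processing of let-7 hairpins. None of this was measured here; only mature arms were counted.

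In the GENCODE annotation of build GRCm38 the hairpins lie on the plus strand, Mir99b at chr17:17830188-17830257, Mirlet7e at chr17:17830352-17830444 and Mir125a at chr17:17830812-17830879, with gaps of 94 and 367 bases and a whole span of 692 bases. They sit inside the protein-coding gene Spaca6 (chr17:17827158-17843009, plus strand), intronic in both Spaca6 transcripts that span them, although 47 bases of Mir125a overlap an exon (chr17:17830719-17830858) of another Spaca6 transcript. On the opposite strand an annotated miRNA gene, Gm25927 (chr17:17830343-17830459), covers Mirlet7e, and whether the authors counted by strand is not given in the sources used here. The 6 mature sequences, from RefSeq on GRCm38.p6, are shown because the counts rest on telling them from their relatives. Each is written 5′ to 3′ with the seed in capitals.
miR-99b-5p: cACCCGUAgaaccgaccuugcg
miR-99b-3p: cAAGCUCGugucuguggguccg
let-7e-5p: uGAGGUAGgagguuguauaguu
let-7e-3p: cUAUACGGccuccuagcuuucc
miR-125a-5p: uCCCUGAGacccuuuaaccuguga
miR-125a-3p: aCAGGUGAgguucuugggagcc

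The 3 tested arms thus carry 3 different seeds, and no seed is shared among the 6 members. Each tested arm shares its seed with miRNAs outside the cluster. Relatives whose levels are given further on are shown beside them.
miR-99a-5p: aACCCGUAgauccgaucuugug
miR-100-5p: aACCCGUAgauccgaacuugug
let-7a-5p: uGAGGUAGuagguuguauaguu
let-7c-5p: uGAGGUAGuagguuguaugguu
let-7d-5p: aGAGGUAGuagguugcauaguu
let-7g-5p: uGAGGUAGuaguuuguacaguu
let-7i-5p: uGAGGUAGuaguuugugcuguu
miR-125b-5p: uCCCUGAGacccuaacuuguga
miR-351-5p: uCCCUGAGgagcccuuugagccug

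Positions are counted from 1 at the 5′ end, with the base of the cluster member first. miR-99b-5p differs from miR-99a-5p by C1A, A11U, C16U and C21U and from miR-100-5p by C1A, A11U, C16A and C21U. A single substitution, G9U, separates let-7e-5p from let-7a-5p, and G9U is also among the differences from let-7c-5p (with A19G), let-7d-5p (with U1A and U16C) and let-7g-5p (with G12U and U18C). From the 5′ end miR-125a-5p is identical to miR-125b-5p over 13 bases and to miR-351-5p over 8. How reads that fit several such sequences were assigned is not given in the sources used here. The hairpins of let-7e and miR-125a in the same table hold both mature arms, in capitals here.
Mirlet7e: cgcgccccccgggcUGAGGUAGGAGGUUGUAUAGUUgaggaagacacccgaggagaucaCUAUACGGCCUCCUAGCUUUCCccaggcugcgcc
Mir125a: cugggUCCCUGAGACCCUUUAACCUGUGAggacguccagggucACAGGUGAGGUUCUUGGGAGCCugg

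Depth was low and uneven. Control ESC libraries held 13607 and 19266 counts, those of paused ESC 61749 and 73574, those of control TSC 18725 and 115492, and those of paused TSC 23652 and 30487. Levels are in CPM (counts brought to a common library size), scaled between libraries with TMM, a trimmed mean of ratios that assumes most miRNAs do not differ. On this scale the limit behind a count of 0, taken as 3 counts, was worth 37.4 to 192 CPM. A list of 7 early embryo miRNAs held 28.3% to 34.2% of counts in every library. Trophoblast miRNAs (4 listed) held 10.4% to 11.0% in control TSC and 5.61% to 7.63% in paused TSC. In ESC they held 0.888% to 1.01% (control) and 0.109% to 0.118% (paused), so this share was lower with pausing in both cell types. The summed trophoblast share went with the labels, while the early embryo share did not tell the cell types apart. All 4 trophoblast miRNAs had higher means in TSC, but miR-466f-3p only slightly in control cells (3457 CPM in ESC, 4342 in TSC). Of the early embryo list, miR-302b-3p, miR-302d-3p and miR-367-3p fell from 794, 620 and 1095 CPM in control ESC to 18.7, 7.73 and 29.4 in paused ESC.

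The whole cluster was a small part of every library and a larger one in TSC. In ESC its 6 arms held 0.140% and 0.0661% of the counts of the control libraries and 0.0938% and 0.117% of the paused ones. In TSC they held 0.283% and 0.251% (control) and 0.609% and 0.794% (paused). The ESC groups overlapped, every TSC library lay above every ESC library, and both paused TSC libraries lay above both control TSC libraries. The ESC means were 0.103% ± 0.0523 (control) and 0.105% ± 0.0161 (paused), and the TSC means 0.267% ± 0.0227 (control) and 0.701% ± 0.131 (paused; SD, n = 2). miR-125a-5p supplied 59.9% to 88.9% of the cluster's counts in each library.

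**Figure D1:**
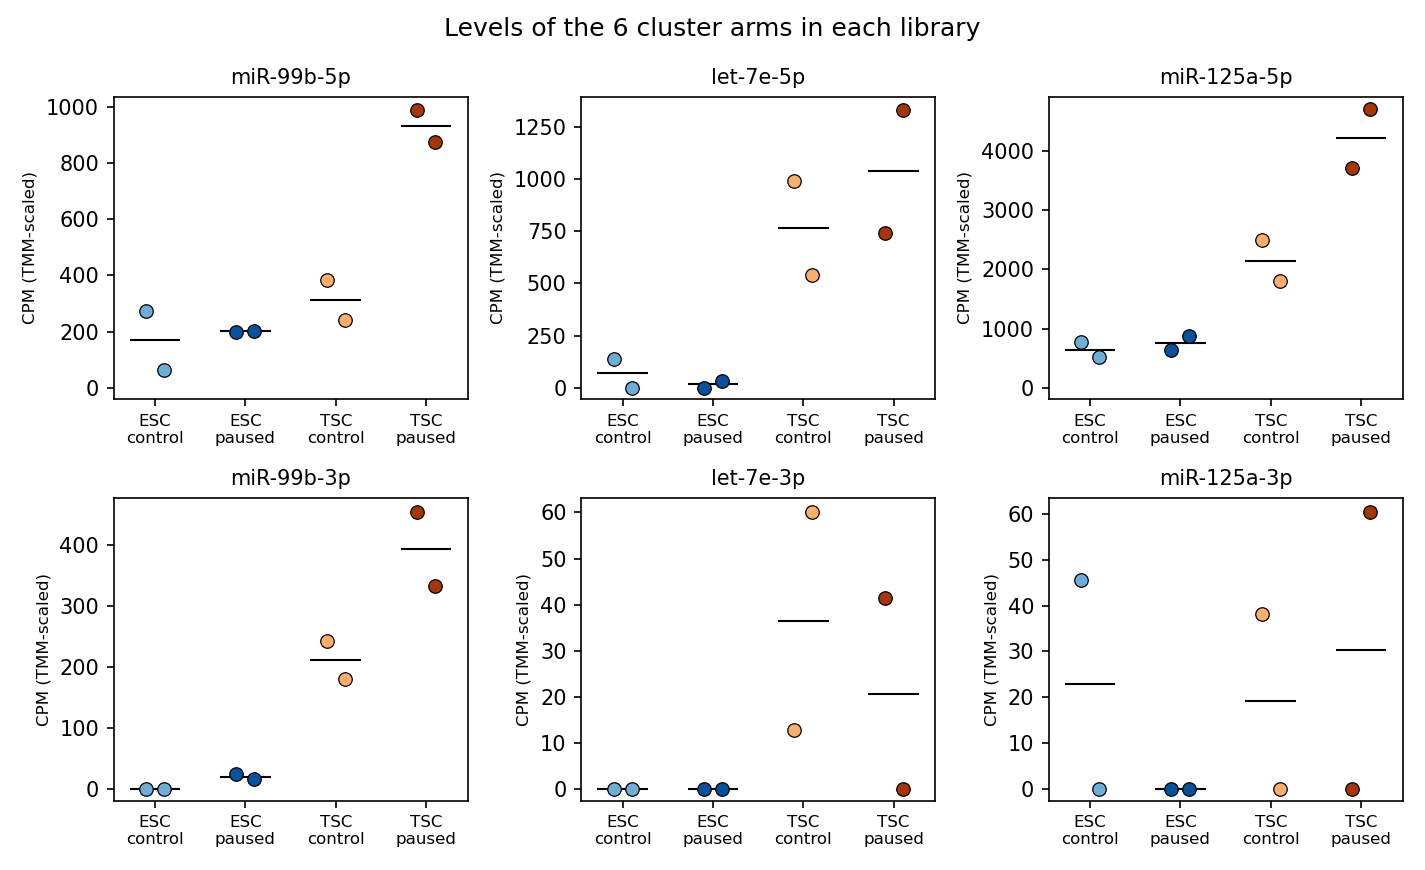
Level of each of the 6 cluster arms in the 8 libraries, in CPM scaled with TMM on a linear axis that differs between panels; points are libraries and bars are group means. The 3 tested 5p arms and miR-99b-3p were highest in paused TSC on average, while let-7e-3p and miR-125a-3p rest on at most 3 counts in any library.

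miR-125a-5p was the most abundant member in every library. In ESC it stood at 775 and 511 CPM in the control libraries (17 and 8 counts) and at 636 and 866 CPM in the paused ones (51 and 56 counts). In TSC it stood at 2497 and 1806 CPM under control conditions (196 and 30 counts) and at 3720 and 4717 CPM when paused (90 and 156 counts). The ESC groups overlapped each other, control TSC lay above both of them, and paused TSC lay above control TSC. By group means the order was ESC control (643 ± 186), ESC paused (751 ± 163), TSC control (2151 ± 489) and TSC paused (4219 ± 705; SD, n = 2), with the 2 ESC means not separated beyond their spread.

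miR-99b-5p was detected in all libraries at lower levels. ESC libraries had 273 and 63.9 CPM (control, 6 and 1 counts) and 200 and 201 CPM (paused, 16 and 13 counts). TSC libraries had 382 and 241 CPM (control, 30 and 4 counts) and 992 and 877 CPM (paused, 24 and 29 counts). Only the paused TSC libraries lay apart from all others for this arm, since control TSC and control ESC overlapped. Group means ran from 169 ± 148 CPM (control ESC) through 200 ± 1.12 (paused ESC) and 311 ± 100 (control TSC) to 934 ± 81.3 (paused TSC; SD, n = 2).

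let-7e-5p was close to absent from ESC. Its counts in ESC were 3 and 0 (control) and 0 and 2 (paused), against 78 and 9 (control) and 18 and 44 (paused) in TSC. In CPM this was 137 and 0, then 0 and 30.9 in ESC, and 994 and 542, then 744 and 1331 in TSC. Every TSC library exceeded every ESC library, while control and paused libraries overlapped within each cell type. Group means in CPM were 15.5 ± 21.9 (paused ESC), 68.4 ± 96.7 (control ESC), 768 ± 320 (control TSC) and 1037 ± 415 (paused TSC; SD, n = 2). Within ESC and within TSC these are not separated beyond their spread.

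The 3p arms, usually the less stable partner strand of these hairpins, were too low to test. miR-99b-3p had 0 and 0 counts (control) and 2 and 1 counts (paused) in ESC. In TSC it had 19 and 3 counts (control, 242 and 181 CPM) and 11 and 11 counts (paused, 455 and 333 CPM). Its TSC libraries again lay above all ESC libraries, and paused TSC above control TSC. The control TSC library with 3 counts (181 CPM) is not resolved from replicate 2 of control ESC. The limit behind the 0 of that ESC library was 192 CPM. let-7e-3p reached 3 counts and miR-125a-3p 6 counts over all 8 libraries together, so no difference was detectable at this depth.

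The first comparison asks whether pausing changes the cluster in ESC. None of the 3 tested members passed an adjusted p of 0.05, where 27.7% of the 206 tested miRNAs did in either direction (8.25% higher, 19.4% lower). The log2 fold change, paused minus control, was 0.12 ± 0.69 for miR-99b-5p (SE, adjusted p = 0.923 in edgeR's quasi-likelihood test) and 0.19 ± 0.46 for miR-125a-5p (adjusted p = 0.788). Their 95% intervals, -1.24 to 1.47 and -0.71 to 1.09, leave room for changes of about the size seen in TSC. For let-7e-5p the value was -2.29 ± 1.26 (adjusted p = 0.178), on 3 counts against 2, and it was 2.80 without replicate 1 of control ESC, the library that held all 3. The members' median was 0.12, beside -0.03 for all tested miRNAs.

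In TSC the 3 tested arms had higher means in paused than in control cells, and 1 of the 3 passed the test. Their median log2 change was 0.94. miR-99b-5p rose 2.67-fold, by 1.42 ± 0.45 on the log2 scale (SE, adjusted p = 0.0172). Over all tested miRNAs 18.9% were called, 1.94% higher and 17% lower. miR-125a-5p had a fold of 1.92 and a log2 value of 0.94 ± 0.36, just short of the threshold (adjusted p = 0.0519), with both paused libraries above both control libraries. let-7e-5p had 0.32 ± 0.38 (adjusted p = 0.633) with a 95% interval of -0.43 to 1.07. The untested miR-99b-3p had 22 counts in each state, which at these library sizes gives a ratio of 1.66 (95% counting interval 0.877 to 3.15). miR-99b-5p passed the filter on low counts only through the 2 paused TSC libraries, so it could enter the test only by being high there; miR-125a-5p passed in all 8 libraries.

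Where TSC values stand depends on scaling. The median log2 change of all 206 miRNAs was -0.39 in paused TSC, and entries of doubtful origin (miR-5126, miR-2137, miR-6240 and miR-5099) held 9.67% to 13.6% of counts in control TSC but 3.09% to 3.44% in paused TSC; their part in the result was not tested. Other settings and left-out libraries moved the median to between -0.77 and 0.08. A change of scaling shifts the log2 changes of all miRNAs nearly alike. Distance from the median of the same fit takes that shift out, so a steady distance is no test of scaling. miR-99b-5p stood 1.80 above this median in the main fit and 1.72 to 2.14 above it over the 18 alternatives. The same distance was 1.32 for miR-125a-5p (1.18 to 1.57) and 0.71 for let-7e-5p (0.31 to 1.18). The call for miR-99b-5p was lost with DESeq2 (adjusted p = 0.211), with a filter at 10 CPM (0.221), when TMM left out the abundant miR-290 cluster (0.0565) and without replicate 2 of paused TSC (0.123). miR-125a-5p was not called in the main fit but was called in 14 of the 18 alternatives, as many as called miR-99b-5p. Among them were total counts (adjusted p = 0.00202), median of ratios (0.0136) and DESeq2 (0.0492). In the alternatives that did not call miR-125a-5p its adjusted p reached 0.459.

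**Figure D2:**
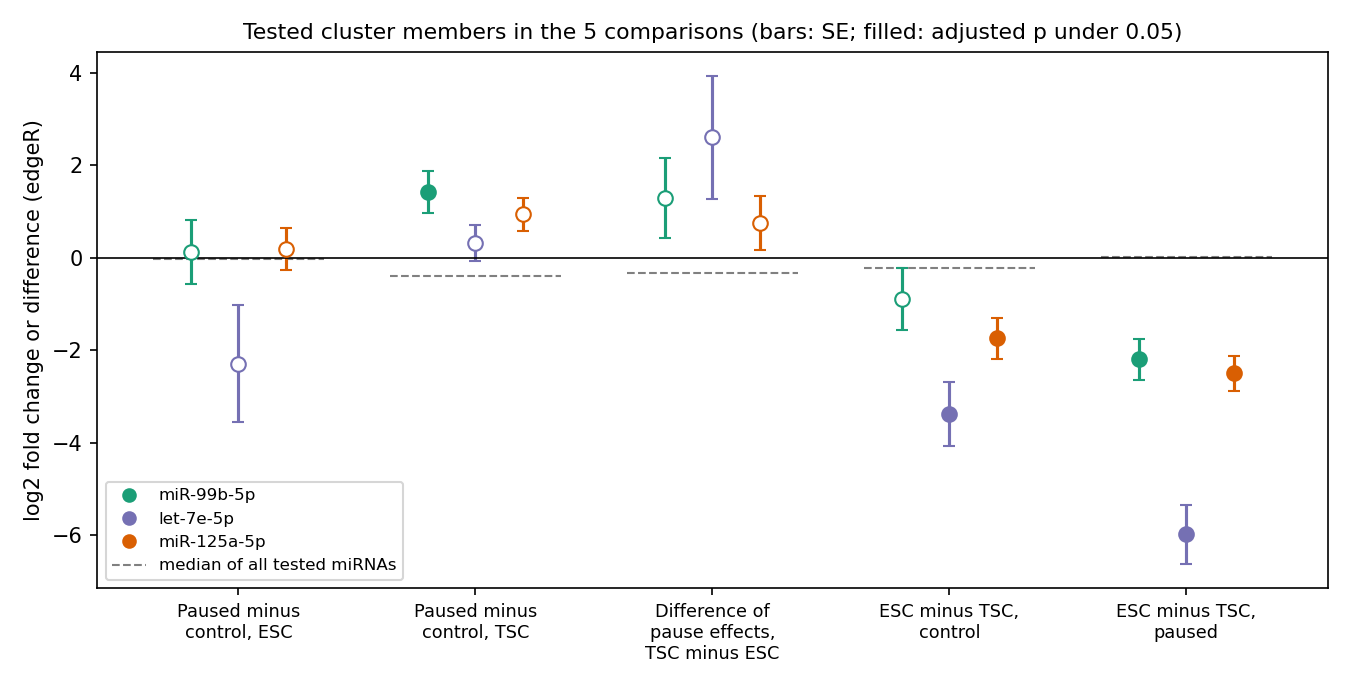
log2 fold change (or difference of fold changes) of the 3 tested members in 5 comparisons, with SE as bars; filled points have an adjusted p under 0.05 and dashed lines are medians over all 206 tested miRNAs. Points lie above the dashed line in paused against control TSC and below it in both comparisons of ESC with TSC.

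Whether pausing acted differently on the members in TSC than in ESC was tested as an interaction. The difference of log2 changes, TSC minus ESC, was 1.30 ± 0.86 for miR-99b-5p (adjusted p = 0.256), 2.61 ± 1.33 for let-7e-5p (0.120) and 0.75 ± 0.59 for miR-125a-5p (0.354). None of the 3 passed, beside 26.2% of all tested miRNAs, so the call in TSC and its lack in ESC are not shown to differ. Without replicate 1 of control ESC the values were -0.16 for miR-99b-5p and -2.09 for let-7e-5p, and without replicate 2 of paused ESC let-7e-5p reached an adjusted p of 0.0367.

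Between the cell types each tested member had its higher mean in TSC, in control and in paused cells. In control cells 2 of the 3 tested members were lower in ESC, where 74.3% of all tested miRNAs were called and 40.8% were lower, so a call by itself is common here. let-7e-5p differed by -3.37 ± 0.69 on the log2 scale, ESC minus TSC (adjusted p = 4.17e-06), which as a ratio of pooled counts is 11.5-fold higher in TSC (95% counting interval 3.79 to 56.7). It was called in all 17 alternatives that tested it, with a log2 value of -7.92 without replicate 1 of control ESC and of -2.36 without replicate 2. Without replicate 1 control ESC held no let-7e-5p count, so the size of -7.92 is not an estimate. let-7e-5p passed the filter on low counts only through TSC libraries, so it had to be high in TSC to be tested. miR-125a-5p differed by -1.74 ± 0.45 (adjusted p = 0.00021), a fold of 3.35, and its adjusted p was 0.0502 without replicate 2 of control ESC. miR-99b-5p had -0.90 ± 0.67 (adjusted p = 0.211), and from -2.14 to -0.078 with 1 library left out; of its 17 alternatives 1 called it, with every file counted as a library (adjusted p = 0.032). Scaling moves these sizes too, since TMM assumes that most miRNAs do not differ. The median log2 difference of all 206 miRNAs was -0.23 in the main fit and 0.40 with total counts. Over the 18 alternatives the log2 value of miR-125a-5p ran from -1.91 to -1.14. For the untested miR-99b-3p, with 22 counts in TSC against 0 in ESC, the 95% counting interval of the ratio begins at 2.16.

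In paused cells all 3 tested members were lower in ESC, beside 76.7% of tested miRNAs called and 39.3% lower. miR-125a-5p differed by -2.50 ± 0.38 (adjusted p = 2.73e-10), miR-99b-5p by -2.20 ± 0.44 (adjusted p = 2.0e-06) and let-7e-5p by -5.98 ± 0.64 (adjusted p = 1.19e-18). For let-7e-5p the ratio of pooled counts was 78.4 (95% counting interval 20.8 to 662), on 2 counts in ESC, and for miR-99b-3p it was 18.5 (5.57 to 96.8), on 3 counts in ESC. All 3 calls held in each of the 18 alternatives. The members' median, -2.50, stood beside 0.01 for all tested miRNAs, and the latter was 0.69 when TMM left out the miR-290 cluster. Over the 18 alternatives the log2 value ran from -2.66 to -1.84 for miR-125a-5p and from -2.23 to -1.52 for miR-99b-5p. let-7e-5p and miR-99b-5p passed the filter only through TSC libraries, so they had to be high in TSC to be tested.

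Fibroblasts, a common feeder cell type, are known to express these families, and 10 fibroblast miRNAs were followed. Their summed share was 0.0882% to 0.118% in ESC, 0.0427% to 0.0719% in control TSC and 0.0164% to 0.0465% in paused TSC, most of it from miR-143-3p and miR-145a-5p, with 187 and 62 counts over all libraries. The members did not go one way: miR-199b-5p and miR-214-3p had no count in ESC but 9 and 7 counts in control TSC and 1 each in paused TSC. Of the 10, 7 held counts, and miR-199a-5p, miR-199a-3p and miR-196a-5p were at 0 in all libraries. Blood miRNAs (4 listed, miR-223-3p at 0) held 0.893% to 1.11% of counts in control ESC, 0.483% to 0.567% in paused ESC and at most 0.0121% in TSC, with 323, 715, 14 and 1 counts in the 4 groups. Blood miRNAs did not go one way with pausing in ESC either. There miR-142a-5p and miR-142a-3p were called lower and miR-150-5p was called higher, so the summed share does not describe each of them. Neural (3 listed) and liver or endoderm (2 listed) miRNAs were at 0 throughout, and muscle miRNAs held 6 counts in all, in control TSC. The part of these cell types in the cluster's levels was not tested.

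Ratios of counts within a library do not depend on scaling. They were compared between groups, and a ratio by itself is not a measure of the relative amounts of the hairpins. With 0.5 added to each count, the log2 ratio of miR-125a-5p to let-7e-5p averaged 3.20 ± 1.25 (control) and 5.59 ± 1.55 (paused) in ESC but 1.50 ± 0.25 (control) and 2.05 ± 0.34 (paused) in TSC (SD, n = 2). All 4 ESC libraries lay above all 4 TSC libraries, a log2 difference of 2.62 or 6.15-fold (exact two-sided permutation test, p = 0.0286, the smallest 4 against 4 allow; adjusted over 9 tests, 0.129). This separation was narrow, with the lowest ESC library at 2.32 and the highest TSC library at 2.29. Since 2 ESC libraries had no let-7e-5p count, the size also depends on the 0.5 added: with 1 added the difference was 2.07 (exact permutation p = 0.0571) and the cell types overlapped, and with 1 library left out it ran from 1.86 to 3.31. let-7e was likewise the scarcer partner of miR-99b-5p in ESC, by a log2 difference of 3.15 between the cell types (exact permutation p = 0.0286, adjusted 0.129), or 2.66 with 1 added and 2.29 to 3.68 with 1 library left out. Neither passes the adjusted threshold, which 9 tests on so few libraries could not reach.

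The other pair kept closer to a fixed ratio. As log2, miR-99b-5p to miR-125a-5p averaged -1.97 ± 0.76 (control) and -1.85 ± 0.30 (paused) in ESC, and -2.72 ± 0.052 (control) and -2.15 ± 0.37 (paused) in TSC (SD, n = 2). The cell types overlapped and differed by 0.53, or 1.44-fold (exact permutation p = 0.143, adjusted 0.375). With pausing in TSC miR-99b-5p gained on miR-125a-5p by 0.58, miR-99b-5p on let-7e-5p by 1.13, and miR-125a-5p on let-7e-5p by 0.55. In each of these 3 the paused libraries lay above the control libraries, and each has an exact permutation p of 0.33, the smallest that 2 against 2 libraries allow.

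**Figure D3:**
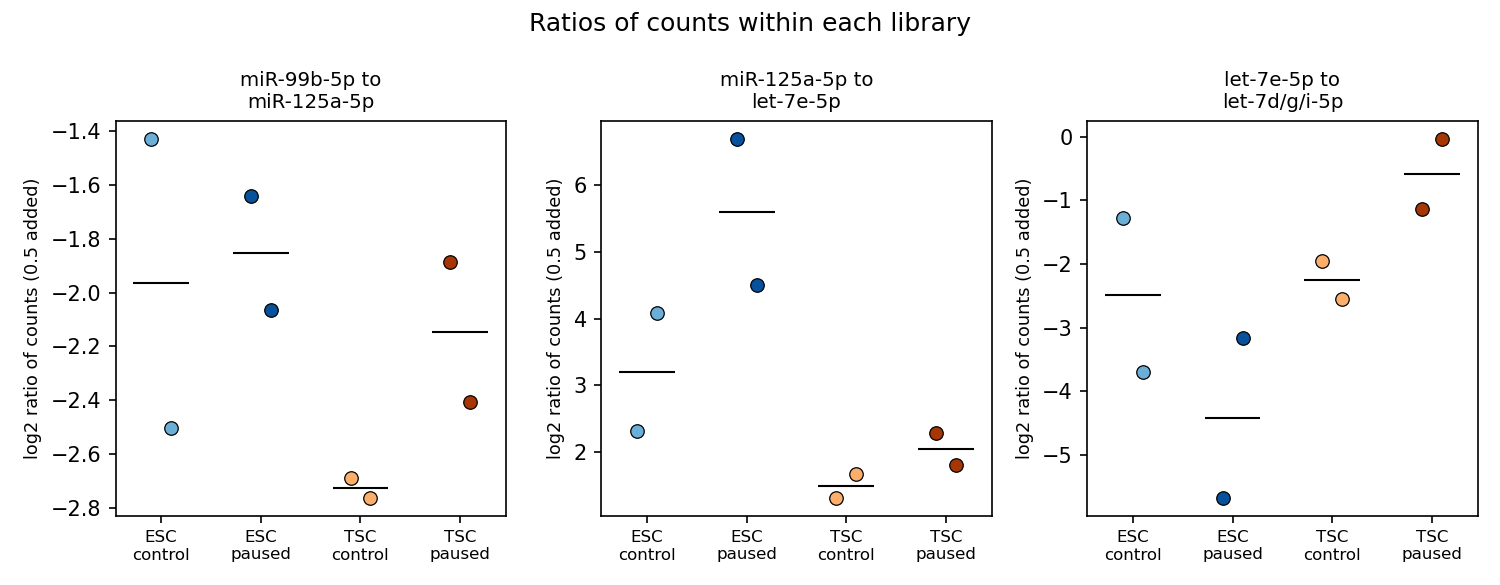
log2 ratio of counts within each library (0.5 added to each count) for 3 pairs; points are the 8 libraries and bars are group means. miR-125a-5p to let-7e-5p is higher in ESC than in TSC, by little in the closest pair of libraries, and let-7e-5p to the sum of let-7d, let-7g and let-7i is highest in paused TSC.

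Over the 8 libraries the log2 levels of the members went up and down together, much of it being the difference between cell types. Pearson's r was 0.95 for let-7e-5p with miR-125a-5p, 0.91 for miR-99b-5p with miR-125a-5p and 0.82 for miR-99b-5p with let-7e-5p (n = 8 libraries). After the group means were removed r was 0.95, 0.72 and 0.85, but with 2 libraries a group this rests on 4 deviations that share each library's depth and scaling. Against all other tested miRNAs, miR-125a-5p was the one most like miR-99b-5p. Outside the cluster the 5 most like miR-99b-5p were miR-335-5p (r = 0.85), miR-744-5p (0.85), miR-21a-5p (0.84), miR-22-5p (0.79) and miR-378a-3p (0.78). The 5 most like miR-125a-5p were miR-21a-5p (0.96), miR-744-5p (0.96), miR-335-5p (0.95), miR-378a-3p (0.94) and miR-483-3p (0.94). The cluster's own let-7e-5p would stand at place 4 and miR-99b-5p at place 10 on that second list, so likeness to miR-125a-5p was not greater inside the cluster than outside it.

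Seed relatives show what share of its family's counts each member held. These shares depend on how reads that fit several sequences or loci were assigned, which is not given. miR-125b-5p and let-7c-5p, each from 2 loci, had no count, and let-7f-5p, also from 2 loci, had 6. miR-99b-5p was nearly alone, since miR-99a-5p had no count in any library and miR-100-5p had 1, and miR-99b-5p held at least 96.8% of the family's counts in each library. None of the 4 other listed arms of that family could be tested.

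miR-125a-5p shared its seed with miR-351-5p, an X-linked miRNA from the cluster of miR-322 and miR-503 that is abundant in trophoblast. miR-351-5p stood at 100 ± 51.5 and 35.7 ± 15.2 CPM in control and paused ESC and at 5738 ± 1845 and 5223 ± 330 in control and paused TSC (SD, n = 2). In ESC miR-125a-5p therefore supplied 86.2% (control) and 95.5% (paused) of the family's counts. In TSC it supplied 32.7% (control, 95% exact interval 29.2% to 36.3%) and 45.3% (paused, 41.1% to 49.6%). By library the TSC shares were 36.0% and 20.4% in control and 40.5% and 48.6% in paused cells, which do not overlap. miR-351-5p, the single testable arm of the 5 listed relatives, was lower in ESC in both states (log2 -5.70 ± 0.58 and -7.12 ± 0.54, adjusted p = 1.95e-20 and 1.0e-34) and was not called with pausing. It passed the filter on low counts only through TSC libraries, so it had to be high in TSC to be tested. miR-125b-5p, made from 2 loci, was listed at 0 throughout.

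In the let-7 family let-7e-5p stands beside many close relatives. The family's other testable arms were let-7d-5p, let-7g-5p and let-7i-5p (3 of 20 listed), and in paused TSC all 3 were lower than in control TSC, by log2 values of -1.44 ± 0.47, -1.06 ± 0.39 and -2.32 ± 0.74 (adjusted p = 0.0233, 0.041 and 0.0172), beside 17% of tested miRNAs called lower. These calls did not hold widely: with total counts, median of ratios, no filter, the replicate block or any 1 library left out none of the 3 was called where it was tested, while the direction was kept. let-7e-5p did not share that direction in the same fit (0.32). let-7i-5p averaged 504 CPM in control TSC, 107 in paused TSC, 196 in control ESC and 32.7 in paused ESC. let-7i-5p passed the filter on low counts only through control TSC, and let-7d-5p could not have passed without a control TSC library. Both therefore had to be high in control TSC to be tested. Within libraries, let-7e-5p had 78 and 9 counts against 304 and 55 for the 3 others together in control TSC, and 18 and 44 against 40 and 45 in paused TSC. The ratio was higher in both paused libraries, by a log2 difference of 1.67 or 3.18-fold, a ratio chosen after the data were seen (exact permutation p = 0.33, the smallest possible), and by 1.12 to 2.22 with any 1 TSC library left out.

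Expressed as a share, let-7e-5p held 17.8% of all let-7 seed counts in control TSC (95% exact interval 14.5% to 21.5%; 18.5% and 13.6% by library) and 42.2% in paused TSC (34.1% to 50.6%; 31.0% and 49.4%). The intervals cover counting error only. In ESC the family was low as a whole, at 20 counts in control and 52 in paused cells, whose libraries were deeper. As a share of all counts this was 0.0608% in control and 0.0384% in paused ESC. Of the family's counts let-7e-5p held 3 and 2. let-7a-5p, 1 base from let-7e-5p, had 2 counts in all libraries together, and let-7c-5p, made from 2 loci, had none.

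**Figure D4:**
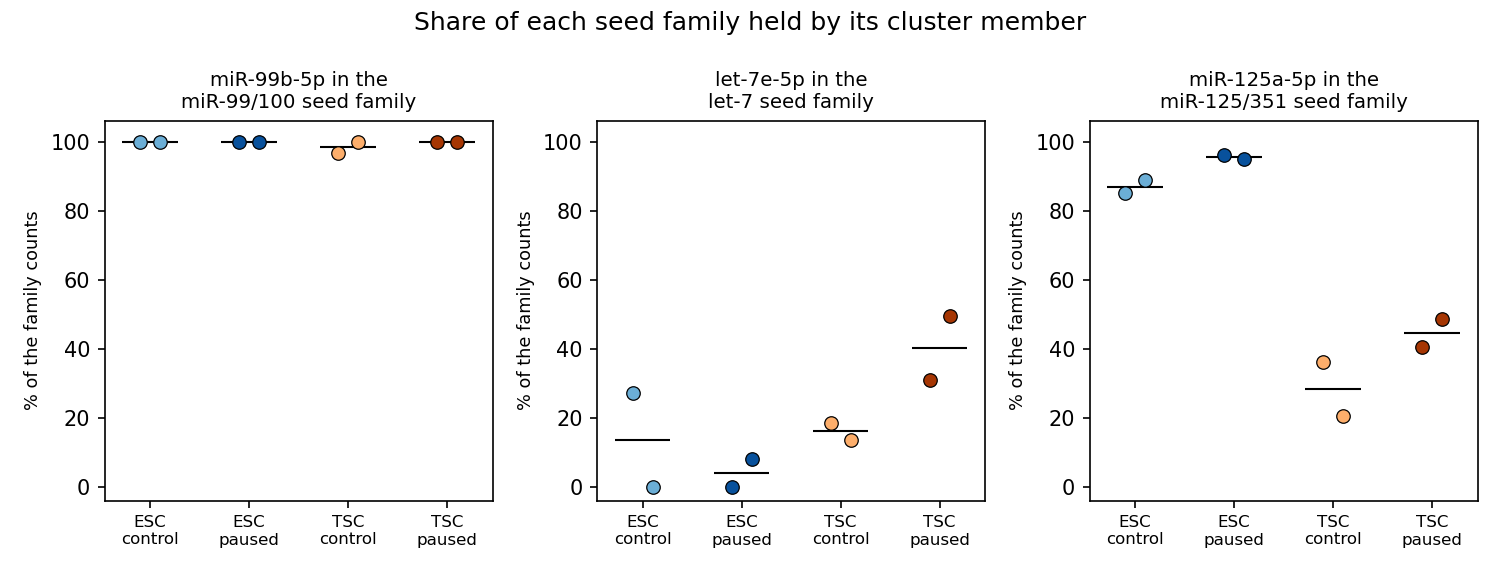
Share of the counts of each seed family held by its cluster member, in percent, for the 8 libraries; points are libraries and bars are group means. miR-99b-5p held nearly all of its family everywhere, miR-125a-5p held most of its family in ESC and less in TSC, and let-7e-5p held more of let-7 in paused than in control TSC.

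The balance of the 2 arms differed between hairpins. For miR-125a the 5p arm held 132 of 133 counts in ESC and 472 of 477 in TSC, and for let-7e 149 of 152 in TSC. miR-99b was more even: its 5p arm held 36 of 39 counts in ESC (92.3%, 95% exact interval 79.1% to 98.4%) and 87 of 131 in TSC (66.4%, 57.6% to 74.4%). By library the 5p share was 100%, 100%, 88.9% and 92.9% in ESC, on 1 to 18 counts each, and 61.2%, 57.1%, 68.6% and 72.5% in TSC, on 7 to 49. The share of no ESC library overlapped that of a TSC library (exact two-sided permutation test, p = 0.0286, the smallest possible, chosen after the data were seen). That test weighs all libraries alike, also the control ESC library with 1 count. Intervals of single libraries did overlap, as 65.3% to 98.6% in replicate 1 of paused ESC and 56.1% to 85.4% in replicate 2 of paused TSC. In control and paused TSC the pooled intervals, 46.8% to 73.5% and 59.0% to 80.6%, overlapped.

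**Figure D5:**
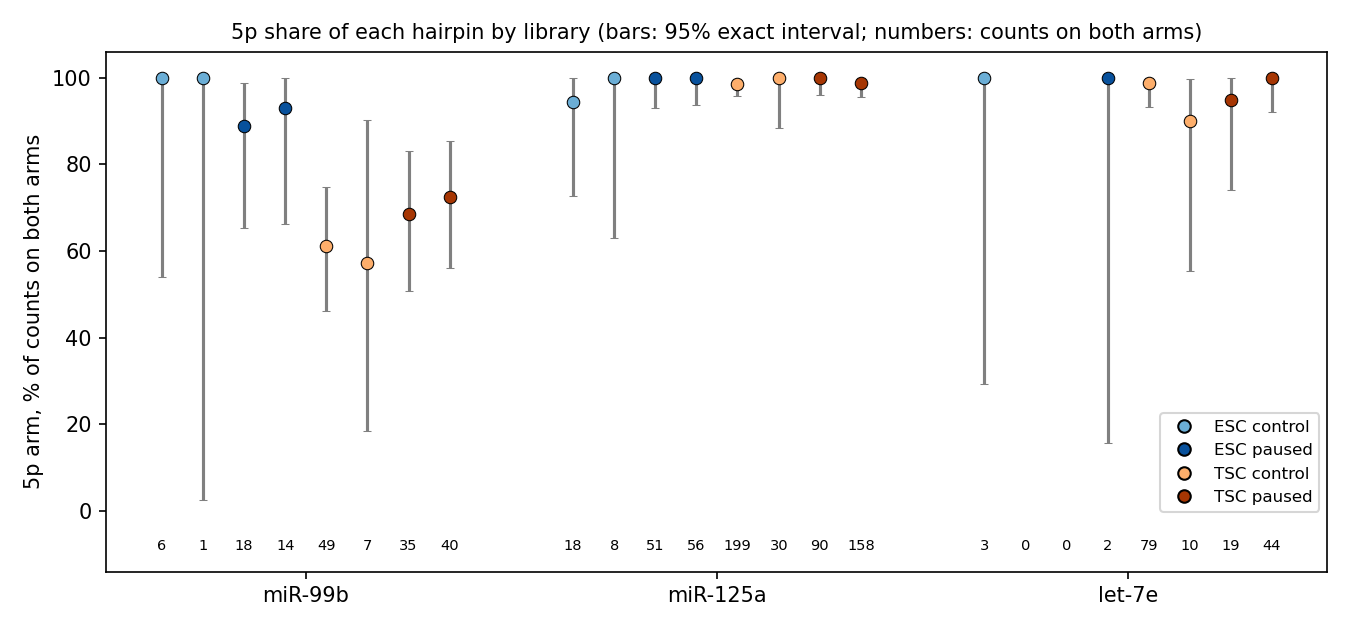
Share of each hairpin's counts that lay on the 5p arm, in percent, for the 8 libraries in the order of the legend; bars are 95% exact binomial intervals and the numbers under the points are counts on both arms. For miR-99b the 4 TSC libraries lie at 57.1% to 72.5% and the 4 ESC libraries at 88.9% to 100%, while miR-125a and let-7e stay near the top.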

How the data were processed

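Libraries were prepared from 10 ng of column-purified small RNA with a SMARTer kit, per the labels' protocols. The deposited values are unscaled counts for each mature arm, which the authors made on build GRCm38, a detail taken from the submitters' processing notes. Aligner, counter, use of strand and treatment of multi-locus reads are not stated in the sources used here. No molecular identifiers are named, so intervals and floors cover counting error only.

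Files of replicates 2 and 3 were identical in each group and were merged, leaving 8 libraries of 13607 to 115492 counts. In edgeR 4.0.16 (R 4.3.3) miRNAs passed filterByExpr at its default of 10 counts at the median depth (369 CPM before scaling) in at least 2 libraries, and libraries were scaled with TMM. The quasi-likelihood fit used all 4 groups, each with its own mean (4 residual degrees of freedom, biological coefficient of variation 21.3%). The spread was pooled over all miRNAs, so p-values do not rest on each miRNA's own spread. A miRNA was called at a two-sided Benjamini-Hochberg adjusted p under 0.05 over the 206 tested. SE is the log2 fold change divided by the root of the F statistic, and is unreliable near a change of 0. The scripts were tested on simulated data. Ratios were compared with exact permutation tests in scipy 1.17.1, shares with exact Clopper-Pearson intervals.

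Genes named are the 6 members, the 5 miRNAs outside the cluster most correlated (log2 CPM, prior count 2) with miR-99b-5p and with miR-125a-5p, and family and marker lists. Members and lists were chosen with earlier results of these data known. Alternatives were DESeq2 1.42.0, other scalings and filters, every file as a library, only the groups compared, the replicate number as a block, and leaving out single libraries.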

Additional observations from a re-analysis of the deposited data

Results flagged for a closer look

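Of the miRNAs named above, miR-21a-5p and miR-335-5p, which were among the 5 most like both miR-99b-5p and miR-125a-5p, had different log2 changes with pausing in the 2 cell types by a test of the difference itself. They were picked for likeness to members whose means were highest in paused TSC, so this is not independent of the pattern of the cluster. For miR-21a-5p, known as a growth-linked miRNA, the log2 change with pausing was 1.37 ± 0.50 higher in TSC than in ESC (SE, adjusted p = 0.0283 in edgeR's quasi-likelihood test), with mean levels in ESC of 1961 ± 62.3 CPM (control) and 1483 ± 68.9 (paused) and in TSC of 4800 ± 2021 (control) and 9602 ± 3057 (paused; SD, n = 2). For miR-335-5p, made from an intron of the imprinted gene Mest, the difference was 1.70 ± 0.54 (adjusted p = 0.0113), on 1355 ± 17.8 and 953 ± 95.9 CPM in ESC and 2605 ± 279 and 6014 ± 263 in TSC. The direction was kept in all 17 alternatives. The call for miR-21a-5p held in 10 of them, with differences of 0.77 to 2.09, and was lost among others with the replicate block (adjusted p = 0.0588) and without replicate 1 or 2 of control ESC (0.104 and 0.0738) or replicate 2 of paused TSC (0.164). That for miR-335-5p held in 12, with differences of 1.12 to 2.27, and was lost among others without replicate 1 or 2 of control ESC (0.0771 and 0.0552). Both calls were also lost with no filter, with a filter at 10 CPM and when TMM left out the miR-290 cluster. Over all tested miRNAs 26.2% were called in this comparison. No cluster member was flagged, since none of the 3 passed that test.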

How the results depend on the processing

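In ESC 57 miRNAs were called with pausing, against 37 with DESeq2 and 94 with every file counted as a library. In TSC 39 were called (4 higher, 35 lower), against 24 with median of ratios (6 higher, 18 lower), 16 with DESeq2, 16 with no filter, 19 with only the groups compared, 20 with the replicate block, 55 with every file and 7 to 32 with 1 library left out. With total counts alone the TSC calls were 26, split 14 higher and 12 lower. The difference of pause effects had 54 calls, against 30 with DESeq2, 30 with no filter, 90 with every file and 26 to 65 with 1 library left out. Control ESC against control TSC had 153 calls, and 100 with only those groups in the fit. Outside the miR-290 cluster, counts on the miR-99b/let-7e/miR-125a cluster were 0.285%, 0.302%, 0.560% and 1.69% in control ESC, paused ESC, control TSC and paused TSC.

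With 1 library left out, the log2 change with pausing in ESC ran from -0.10 to 1.96 for miR-99b-5p and from -4.75 to 2.80 for let-7e-5p, and its difference between TSC and ESC from -0.16 to 1.98 and from -2.09 to 5.51. The extremes for let-7e-5p come from fits in which an ESC group held no count of it, so their sizes are not estimates. A filter at 10 CPM gave -0.059 for let-7e-5p in paused TSC, not called in either fit. The log2 change of the miR-99b-5p to miR-125a-5p ratio in ESC, 0.11, was -0.053 with a pseudocount of 1, -0.10 with pooled counts and -0.42 to 0.65 with 1 library left out. Replicate numbers were not shown to pair the libraries: deviations of same-numbered control and paused libraries correlated at r = -0.07 in ESC and -0.18 in TSC over 206 miRNAs. With the replicate block the log2 change in paused TSC was 1.53 for miR-99b-5p, still called, and 0.94 for miR-125a-5p (adjusted p = 0.128). With crossed numbers in TSC, added after the data were seen, the TSC calls were 35. Depth limits miR-99b-5p, at 1 to 30 counts in each library, and let-7e-5p in ESC, at 0 to 3.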
